A study of Homo sapiens with 4 samples.

Results

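The 43 genes described here encode the machinery that copies DNA and the enzymes that make deoxynucleotides for it. They were chosen by name, as members of these pathways, with earlier results of these data known. All 43 were matched to 1 gene each among the 32479 genes measured. By role they are 11 genes of origin licensing, 6 of helicase activation, 6 of the sliding clamp and its loader, 9 of the polymerases and primase, 5 of strand joining and single-strand binding, 5 of nucleotide synthesis, and UHRF1, which acts on newly copied chromatin. The study sequenced RNA of 2 human liver cancer lines, with 1 library per group: HepG2 with 20 uM PF-429242 for 24 h, the HepG2 control at 24 h, PLC/PRF/5 with 20 uM PF-429242 for 24 h, and the PLC/PRF/5 control at 24 h. Both lines are labelled wild type, and the controls are labelled as receiving no compound; whether they received solvent is not stated. PF-429242 blocks site-1 protease, the Golgi enzyme that begins the release of the membrane-bound transcription factors of the SREBP and ATF6 families. HepG2 came from a liver tumour of hepatoblastoma type, and PLC/PRF/5 from a hepatoma that carries integrated hepatitis B virus DNA.

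The libraries held 20350701 fragments in treated HepG2, 16722204 in control HepG2, 16982560 in treated PLC/PRF/5 and 21387301 in control PLC/PRF/5. All 11 hepatocyte markers were measured above 1 FPKM in both lines, with summed levels of 7394 and 8494 FPKM in treated and control HepG2 and 3059 and 2726 FPKM in treated and control PLC/PRF/5. The matched markers of endothelial cells (3) and fibroblasts (4) reached at most 1.36 FPKM. Of 4 matched blood markers, 3 stayed below 1 FPKM, while LYZ, the lysozyme gene, had 179 to 504 FPKM. Mitochondrial genes took 27.6% of the fragments of treated HepG2 against 16.6% in control HepG2, and 28.2% in treated PLC/PRF/5 against 21.3% in control PLC/PRF/5. Because FPKM (fragments counted per gene, scaled to gene length and library depth) is scaled to all fragments, a nuclear gene with an equal share of the nuclear fragments would show an FPKM ratio of 0.868 in HepG2 and 0.913 in PLC/PRF/5, treated over control. Ratios are therefore given on total fragments and, where stated, on nuclear fragments alone, each with a 95% exact binomial interval. These intervals cover counting error only, since no group had a second library.

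In each cell cycle, the origin recognition complex (with ORC1 and ORC6), CDC6 and CDT1 load the ring of MCM2 to MCM7 onto DNA in G1, and geminin (GMNN) later binds CDT1 to prevent reloading. In S phase, CDC45 and the GINS complex join the ring to form the active helicase, polymerase alpha with primase starts each strand, and polymerases delta and epsilon extend it with the PCNA clamp. Many of these genes are transcribed under E2F factors at the border of G1 and S. Ribonucleotide reductase (RRM1 with RRM2), thymidylate synthase (TYMS) and thymidine kinase (TK1) help set the supply of deoxynucleotides.

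Promoters are shown for the 3 genes with the lowest mean log2 ratio over the lines (UHRF1, TK1 and FEN1) and for the gene with the highest (CDT1), since these mark the extremes of the response; PCNA and GINS1 were added after their values were seen, as genes that stood far apart between the untreated lines. Each window is 300 bases, from 250 before to 50 after the annotated start, on the gene's own strand, from RefSeq on GRCh38.p14. The capitals mark matches on either strand to the E2F words TTTCCCGC, TTTCGCGC, TTTGCCGC and TTTGGCGC. The windows lie at chr19:4909251-4909550, plus strand (UHRF1), chr17:78187155-78187454, minus strand (TK1), chr11:61792661-61792960, plus strand (FEN1), chr16:88803539-88803838, plus strand (CDT1), chr20:5126573-5126872, minus strand (PCNA) and chr20:25407423-25407722, plus strand (GINS1).
UHRF1: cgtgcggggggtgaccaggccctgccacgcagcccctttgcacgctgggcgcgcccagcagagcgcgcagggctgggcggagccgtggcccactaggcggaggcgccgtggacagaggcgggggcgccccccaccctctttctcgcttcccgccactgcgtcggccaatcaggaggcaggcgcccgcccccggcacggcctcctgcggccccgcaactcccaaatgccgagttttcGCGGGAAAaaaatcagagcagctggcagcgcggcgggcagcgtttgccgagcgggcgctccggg
TK1: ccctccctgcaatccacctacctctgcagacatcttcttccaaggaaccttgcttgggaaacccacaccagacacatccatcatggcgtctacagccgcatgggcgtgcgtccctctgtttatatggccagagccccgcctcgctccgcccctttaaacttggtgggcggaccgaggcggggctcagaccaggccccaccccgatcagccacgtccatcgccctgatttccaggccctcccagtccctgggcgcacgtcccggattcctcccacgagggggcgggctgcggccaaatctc
FEN1: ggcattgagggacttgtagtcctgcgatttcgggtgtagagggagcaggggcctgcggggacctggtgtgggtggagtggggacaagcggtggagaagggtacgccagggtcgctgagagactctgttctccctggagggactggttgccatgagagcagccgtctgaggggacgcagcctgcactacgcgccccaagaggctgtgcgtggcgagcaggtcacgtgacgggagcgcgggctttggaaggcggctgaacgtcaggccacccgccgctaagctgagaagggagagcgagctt
CDT1: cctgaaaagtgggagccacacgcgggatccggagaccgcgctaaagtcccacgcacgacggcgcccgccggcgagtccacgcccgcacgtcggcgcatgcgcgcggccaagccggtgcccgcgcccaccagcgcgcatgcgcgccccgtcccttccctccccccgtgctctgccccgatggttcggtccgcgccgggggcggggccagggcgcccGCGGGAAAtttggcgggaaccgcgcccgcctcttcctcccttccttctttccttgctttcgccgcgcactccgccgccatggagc
PCNA: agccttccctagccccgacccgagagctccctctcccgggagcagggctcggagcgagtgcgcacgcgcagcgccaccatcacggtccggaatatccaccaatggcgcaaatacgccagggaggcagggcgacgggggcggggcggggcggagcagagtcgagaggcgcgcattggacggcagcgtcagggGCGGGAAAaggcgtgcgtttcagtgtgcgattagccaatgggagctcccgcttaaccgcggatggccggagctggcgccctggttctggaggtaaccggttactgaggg
GINS1: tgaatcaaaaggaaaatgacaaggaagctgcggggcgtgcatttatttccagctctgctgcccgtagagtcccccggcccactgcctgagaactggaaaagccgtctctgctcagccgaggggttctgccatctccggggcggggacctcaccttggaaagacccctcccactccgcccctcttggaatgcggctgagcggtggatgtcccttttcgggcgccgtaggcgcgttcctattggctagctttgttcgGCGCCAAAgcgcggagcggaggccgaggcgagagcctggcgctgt
The printed windows of UHRF1, CDT1, PCNA and GINS1 each held 1 E2F match, and those of TK1 and FEN1 held none of these letters. UHRF1 has 3 windows and TK1 and PCNA have 2 each, of which the 1 nearest the GENCODE 29 gene start is shown. For UHRF1 that window lies 6421 bases from this gene start. The other windows of TK1 and PCNA held no E2F word. The other UHRF1 windows begin at 4909894, with 1 match, and at 4910117, with none.

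A RefSeq window was matched for 37 of the 43 genes, 52 windows in all because some genes have several starts. An E2F word was found in 21 of the 52 windows (40.4%), against 1164 of 35116 windows of the same length over all genes (3.31%). The letters CCAAT, the core of the NF-Y site, were in 29 of the 52 windows (55.8%), against 34.6% of all windows. The letters TTTGAA, the core of the cell cycle homology region found in many G2 and mitosis genes, were in 2 of the 52 windows (3.85%), against 15.2% of all windows. The sterol regulatory element TCACNCCAC was in 0 of the 52 windows, against 1.13% of all windows. No word searched is contained in another, and a match describes letters, not binding.

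Among themselves the 43 genes kept much the same order of levels in all 4 libraries. PCNA, the sliding clamp, was the highest of them in each library, at 142 FPKM in treated HepG2 against 204 FPKM in control HepG2, and 84.9 FPKM in treated PLC/PRF/5 against 90.4 FPKM in control PLC/PRF/5. MCM3 and MCM7, subunits of the helicase ring, were also near the top, and POLA2, the accessory subunit of polymerase alpha, was the lowest, at 0.282 FPKM in treated HepG2 against 0.516 FPKM in control HepG2, and 0.666 FPKM in treated PLC/PRF/5 against 1.05 FPKM in control PLC/PRF/5. Across the 43 genes, the Spearman correlation of levels was 0.990 between treated and control HepG2, 0.951 between treated and control PLC/PRF/5, and 0.860 between the HepG2 and PLC/PRF/5 controls; these describe genes within libraries, which are not replicates. The median gene had 10.4 and 13.2 FPKM in treated and control HepG2 and 10.8 and 13.3 FPKM in treated and control PLC/PRF/5. Each gene was counted with between 32 and 5445 fragments, so counting error is small for most of them.

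**Figure D1:**
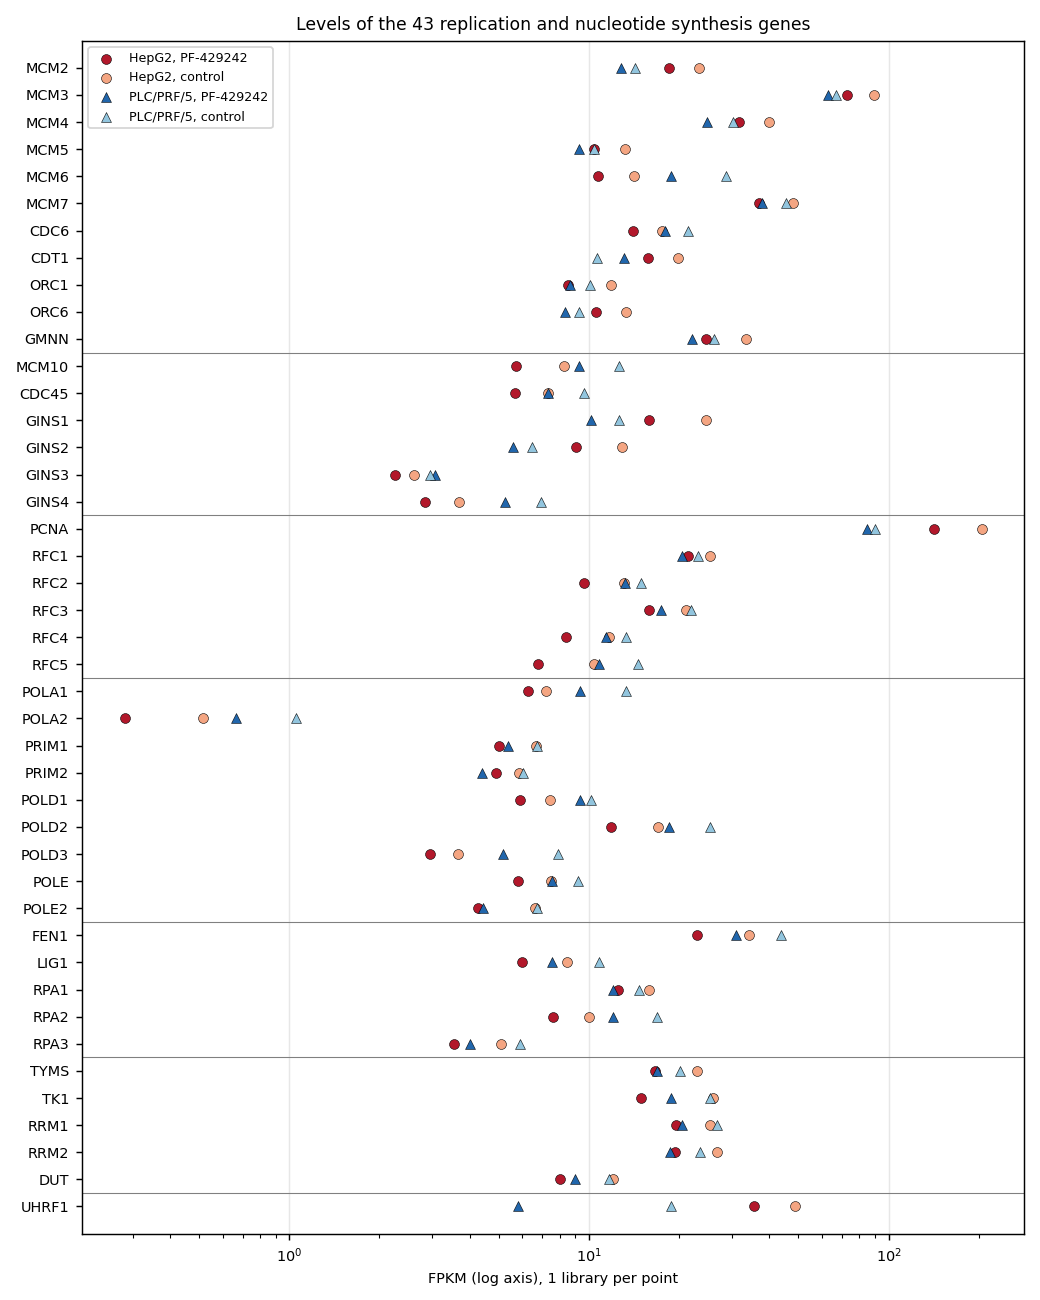
Level of each of the 43 genes in FPKM (log axis), 1 point per library, with circles for HepG2, triangles for PLC/PRF/5, dark fill for PF-429242 and light fill for control, and lines between the roles. In HepG2 every dark circle lies left of its light circle, PCNA is the highest gene in all 4 libraries, and CDT1 and GINS3 are the 2 genes whose dark triangle lies to the right of the light one on this scale; on the TPM scale both were below control.

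With PF-429242, all 43 genes were lower in HepG2 on the deposited scale, and 41 of 43 were lower in PLC/PRF/5. The exceptions there were CDT1 and GINS3, which were below control on the TPM scale. Most protein-coding genes were also lower on the deposited scale, with median log2 ratios of -0.18 in HepG2 and -0.13 in PLC/PRF/5. Summed over the 43 genes, fragments took 0.274% of the treated HepG2 library against 0.364% of the control, a ratio of 0.754 (0.745 to 0.763). In PLC/PRF/5 they took 0.261% of the treated library against 0.325% of the control, a ratio of 0.803 (0.794 to 0.813). Relative to nuclear fragments the summed ratios were 0.868 (0.858 to 0.878) in HepG2 and 0.880 (0.870 to 0.891) in PLC/PRF/5, so the sum was lower with PF-429242 on either total, and by less on nuclear fragments. Under the TPM scale, median-of-ratios scaling, nuclear totals and quantile normalization, 41 to 43 genes were lower in HepG2 and 36 to 43 in PLC/PRF/5; those above control under at least 1 of these were GINS3 and POLA1 in HepG2, and MCM2, MCM3, CDT1, GINS3, PCNA, RFC1 and POLD1 in PLC/PRF/5. In these bulk libraries, fewer cells in S phase and less of these RNAs per cell cannot be told apart.

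The differences were shallow and shared by most of the genes. In HepG2 the median log2 ratio of (FPKM + 1) was -0.37 for the 43 genes, against -0.17 for the 12347 genes that reached 1 FPKM in a HepG2 library, a filter that 42 of the 43 passed (POLA2 did not). In PLC/PRF/5 it was -0.28, against -0.13 for 13144 genes, and all 43 passed. The scalings moved the median of all genes to between -0.45 and 0.01 in HepG2 and between -0.40 and -0.01 in PLC/PRF/5, while the genes described here kept a median 0.17 to 0.24 below it in HepG2 and 0.13 to 0.19 below it in PLC/PRF/5. Adding 1 FPKM before the log understates the change of low genes. On this scale 2 of the 42 were lower past 1.5-fold in treated HepG2 (GINS1 and TK1), against 5.54% of all genes and 2.53% of protein-coding genes, and 0 were higher, against 2.33% and 0.41%. Past 1.5-fold, 1 of 43 was lower in treated PLC/PRF/5 (UHRF1), against 5.07% of all genes and 2.41% of protein-coding genes, and 0 were higher, against 4.25% and 1.84%. The 2 genes in HepG2 are 4.76% of the 42, below the share of all genes and above that of protein-coding genes, and the 1 in PLC/PRF/5 is 2.33% of the 43, below both; these differences in share were not tested.

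Smaller differences were read by the counting intervals, which compare libraries. On total fragments the interval of the HepG2 ratio lay below 1 for 41 of the 42 genes, against 50.4% of all genes. On nuclear fragments it lay below 1 for 31 of the 42, against 18.0% of all genes, and above 1 for 0, against 16.4%. Among protein-coding genes with at least 222 fragments in both HepG2 libraries, the least of any of the 42, the share below 1 was 65.5% on total fragments and 22.0% on nuclear fragments. In PLC/PRF/5 the interval on total fragments lay below 1 for 38 of 43, against 41.4% of all genes and 49.2% of protein-coding genes with at least 63 fragments in both libraries. It lay above 1 for CDT1 alone, against 10.4% of all genes. On nuclear fragments it lay below 1 for 27 of 43, against 24.3% of all genes and 28.4% of protein-coding genes with at least 63 fragments in both libraries, and above 1 for 1 (CDT1), against 19.1%.

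**Figure D2:**
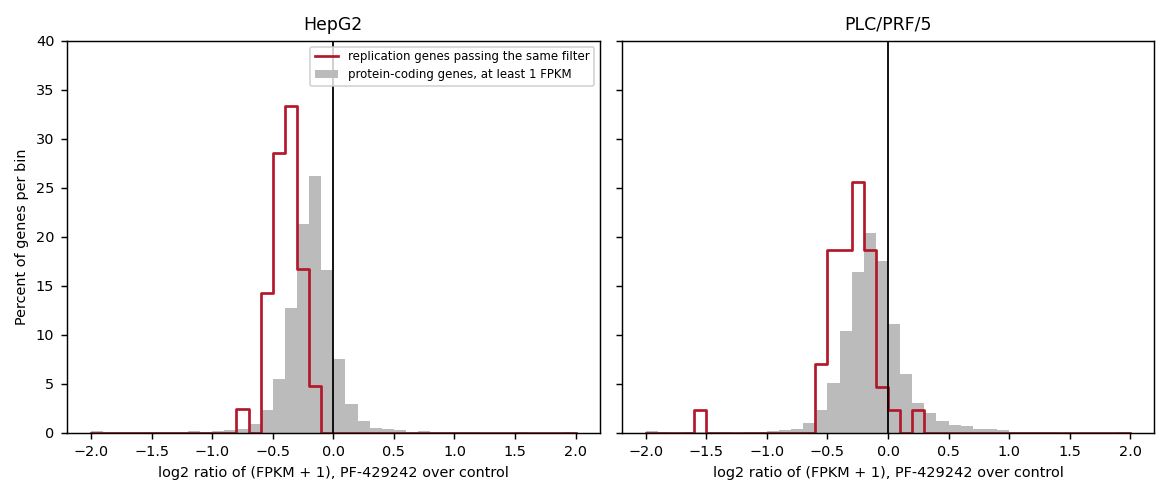
Percent of genes per bin of the log2 ratio of (FPKM + 1), PF-429242 over control, in HepG2 (left) and PLC/PRF/5 (right); the red outline is the replication genes that reached 1 FPKM in a library and grey is all protein-coding genes with the same filter, with the few beyond 2 in either direction placed in the end bins. The red outline sits left of the grey in both lines, with UHRF1 alone at -1.54 and CDT1 at 0.28 in PLC/PRF/5.

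The lines themselves are the only repeats of the treatment, so the shared effect was fitted over both with limma, with the line as a block and 1 residual degree of freedom. Of the 42 genes tested, 0 passed an adjusted p of 0.05, and the background was 0.0% of 12838 genes. At an unadjusted p under 0.05, 36 of the 42 were lower and 0 higher, against 19.4% of all genes in either direction; limma-voom on the recovered fragments also called 0 at the adjusted threshold, with 35 at the unadjusted one, against 24.2% of all genes. The unadjusted count depended on the scaling: it was 15 of 42 on nuclear totals, against 10.6% of all genes, 14 with median-of-ratios scaling, against 10.6%, and 11 after quantile normalization, against 10.3%. Without the line as a block it was 2 of 42, against 0.872% of all genes. The lowest adjusted p of any of them was 0.193, shared by 15 genes. FEN1 had a shared log2 change of -0.52 (SE 0.07, limma adjusted p = 0.193), TK1 of -0.59 (SE 0.11, limma adjusted p = 0.193), and UHRF1 of -0.99 (SE 0.28, limma adjusted p = 0.213). CDT1, with opposite directions in the lines, had -0.02 (SE 0.16, limma adjusted p = 0.960). With the libraries rescaled to equal sums of FPKM (TPM scale), 40 of the 42 were lower at an adjusted p of 0.05, but so were 46.9% of all genes.

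The licensing genes were modestly lower in both lines on the deposited scale, with 1 exception. Summed over 11 genes, the ratio was 0.787 (0.773 to 0.802) in HepG2 and 0.860 (0.844 to 0.877) in PLC/PRF/5, and on nuclear fragments 0.906 (0.890 to 0.923) in HepG2 and 0.943 (0.925 to 0.961) in PLC/PRF/5. The exception was CDT1 (chromosome 16, 88803213 to 88809258, plus strand on GRCh38), the loader of the MCM ring, at 15.8 FPKM in treated HepG2 against 19.8 FPKM in control HepG2, and 13.1 FPKM in treated PLC/PRF/5 against 10.6 FPKM in control PLC/PRF/5. Its ratio was 0.795 (0.733 to 0.862) in HepG2 and 1.24 (1.12 to 1.36) in PLC/PRF/5, so the counting intervals lay on opposite sides of 1. On nuclear fragments the ratios were 0.915 (0.844 to 0.992) in HepG2 and 1.35 (1.23 to 1.49) in PLC/PRF/5. In PLC/PRF/5 it was also above control with median-of-ratios scaling and quantile normalization. Only the TPM scale put it below, at a log2 ratio of -0.03, so the sign there rests on whether that scale is used. No other licensing gene was higher in PLC/PRF/5 on the deposited scale, while on nuclear totals MCM3 was also above its control. Its inhibitor GMNN was lower in both lines, at 24.7 FPKM in treated HepG2 against 33.4 FPKM in control HepG2, and 22.1 FPKM in treated PLC/PRF/5 against 26.1 FPKM in control PLC/PRF/5. The level of GMNN per CDT1 was 1.57 in treated and 1.68 in control HepG2, and 1.68 in treated and 2.46 in control PLC/PRF/5.

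Within the MCM ring, MCM6 was the only subunit with a lower ratio in PLC/PRF/5 than in HepG2. It had 10.7 FPKM in treated HepG2 against 14.1 FPKM in control HepG2, and 18.8 FPKM in treated PLC/PRF/5 against 28.6 FPKM in control PLC/PRF/5. Its ratio of 0.658 (0.615 to 0.703) in PLC/PRF/5 was the lowest of the ring there, against 0.759 (0.692 to 0.831) in HepG2, with overlapping intervals. It was the licensing gene with the lowest mean log2 ratio over the lines. The other subunits had closely similar ratios in HepG2, between 0.766 (MCM7) and 0.816 (MCM3), all within the MCM6 interval there. In PLC/PRF/5 they lay between 0.819 (MCM4) and 0.946 (MCM3). MCM3 was the most abundant subunit and MCM5 the least in every library, and the span from MCM5 to MCM3 was 7.02 and 6.74 in treated and control HepG2 and 6.82 and 6.40 in treated and control PLC/PRF/5. ORC1 and ORC6, subunits of the origin recognition complex, had ratios of 0.719 and 0.799 in HepG2 and 0.861 and 0.900 in PLC/PRF/5. CDC6, the ATPase that loads the ring together with the origin complex, had ratios of 0.800 in HepG2 and 0.843 in PLC/PRF/5.

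The genes that switch the helicase on had a summed ratio of 0.699 (0.668 to 0.732) in HepG2 and 0.794 (0.759 to 0.832) in PLC/PRF/5. On nuclear fragments these were 0.805 (0.769 to 0.843) in HepG2 and 0.870 (0.831 to 0.911) in PLC/PRF/5. GINS1 (chromosome 20, 25407727 to 25452628, plus strand), a subunit of the GINS complex, had 15.9 FPKM in treated HepG2 against 24.5 FPKM in control HepG2, and 10.2 FPKM in treated PLC/PRF/5 against 12.6 FPKM in control PLC/PRF/5. Its ratio was 0.649 (0.603 to 0.697) in HepG2, 1 of the 2 past 1.5-fold there, and 0.811 (0.737 to 0.892) in PLC/PRF/5. GINS3, another subunit of the same complex, was at 2.25 FPKM in treated HepG2 against 2.60 FPKM in control HepG2, and 3.07 FPKM in treated PLC/PRF/5 against 2.94 FPKM in control PLC/PRF/5, and both its intervals spanned 1, with ratios of 0.866 (0.718 to 1.05) in HepG2 and 1.04 (0.884 to 1.23) in PLC/PRF/5. The HepG2 intervals of GINS1 and GINS3 did not overlap. GINS2 had ratios of 0.704 in HepG2 and 0.864 in PLC/PRF/5, and GINS4 of 0.770 in HepG2 and 0.761 in PLC/PRF/5. MCM10, which helps fire the assembled helicase, had a ratio of 0.693 (0.622 to 0.771) in HepG2 and 0.740 (0.679 to 0.805) in PLC/PRF/5. CDC45, a part of the active helicase, had a ratio of 0.777 (0.666 to 0.906) in HepG2 and 0.756 (0.661 to 0.864) in PLC/PRF/5.

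PCNA had a larger gap between the lines than any subunit of the loader that places it on DNA: its log2 ratio was -0.43 apart, HepG2 minus PLC/PRF/5, against -0.25 (RFC2) to -0.06 (RFC1) for the loader; these gaps were not tested. Its ratio was 0.695 (0.666 to 0.725) in HepG2 and 0.940 (0.887 to 0.996) in PLC/PRF/5 (chromosome 20, 5114953 to 5126626, minus strand on GRCh38), and on nuclear fragments 0.800 (0.767 to 0.835) in HepG2 and 1.03 (0.972 to 1.09) in PLC/PRF/5. Among the loader subunits, RFC5 had the lowest mean log2 ratio over the lines, at 6.75 FPKM in treated HepG2 against 10.4 FPKM in control HepG2, and 10.8 FPKM in treated PLC/PRF/5 against 14.6 FPKM in control PLC/PRF/5. Its ratios were 0.650 (0.573 to 0.737) in HepG2 and 0.739 (0.667 to 0.819) in PLC/PRF/5. RFC1, the large subunit, was the closest to 1 in HepG2 at 0.841, and RFC2, RFC3 and RFC4 lay between 0.718 and 0.754 there and between 0.796 and 0.883 in PLC/PRF/5. RFC4 and RFC5 share exon bases with EIF4A2 and WSB2, and the strand setting of the libraries is not known here.

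On the deposited scale all 9 polymerase and primase genes were lower in treated cells of both lines, as most protein-coding genes were. POLA1 in HepG2 and POLD1 in PLC/PRF/5 were at or slightly above control under every scaling but the deposited and TPM ones. The role had summed ratios of 0.771 (0.743 to 0.800) in HepG2 and 0.762 (0.739 to 0.786) in PLC/PRF/5, and 0.887 (0.855 to 0.921) in HepG2 and 0.835 (0.810 to 0.862) in PLC/PRF/5 on nuclear fragments. POLE2, the accessory subunit of polymerase epsilon, had the lowest mean log2 ratio of (FPKM + 1) in the role, at 4.26 FPKM in treated HepG2 against 6.60 FPKM in control HepG2, and 4.44 FPKM in treated PLC/PRF/5 against 6.71 FPKM in control PLC/PRF/5. Its ratios were 0.645 (0.546 to 0.762) in HepG2 and 0.662 (0.561 to 0.781) in PLC/PRF/5, with overlapping intervals. POLA1, the catalytic subunit of polymerase alpha, was nearer to its control in HepG2, at 6.28 FPKM in treated HepG2 against 7.21 FPKM in control HepG2, and 9.34 FPKM in treated PLC/PRF/5 against 13.3 FPKM in control PLC/PRF/5. Its ratios were 0.871 (0.788 to 0.963) in HepG2 and 0.700 (0.648 to 0.757) in PLC/PRF/5, and on nuclear fragments the HepG2 ratio was 1.00 (0.908 to 1.11), an interval that spanned 1. POLD3, an accessory subunit of polymerase delta, had 2.94 FPKM in treated HepG2 against 3.67 FPKM in control HepG2, and 5.17 FPKM in treated PLC/PRF/5 against 7.91 FPKM in control PLC/PRF/5. Its ratios were 0.802 (0.687 to 0.936) in HepG2 and 0.654 (0.585 to 0.731) in PLC/PRF/5, again lower in PLC/PRF/5, with overlapping intervals.

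POLD1, the catalytic subunit of polymerase delta, had ratios of 0.790 in HepG2 and 0.923 in PLC/PRF/5, against 0.692 in HepG2 and 0.732 in PLC/PRF/5 for its accessory subunit POLD2; on nuclear totals POLD1 was slightly above its control in PLC/PRF/5. POLE, the catalytic subunit of polymerase epsilon, had 0.775 in HepG2 and 0.813 in PLC/PRF/5. The primase genes PRIM1 and PRIM2 had 0.752 and 0.843 in HepG2 and 0.799 and 0.728 in PLC/PRF/5, and PRIM1 shares exon bases with NACA and HSD17B6. POLA2, with the fewest fragments of the 43, had 0.548 (0.339 to 0.875) in HepG2 and 0.635 (0.461 to 0.866) in PLC/PRF/5, the widest intervals of any of them.

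The genes for strand joining and single-strand binding had nearly equal summed ratios in the lines, 0.729 (0.698 to 0.762) in HepG2 and 0.732 (0.703 to 0.763) in PLC/PRF/5, and 0.840 (0.803 to 0.877) in HepG2 and 0.802 (0.771 to 0.836) in PLC/PRF/5 on nuclear fragments. FEN1 (chromosome 11, 61792637 to 61797244, plus strand), the nuclease that trims flaps from lagging-strand fragments, had 23.0 FPKM in treated HepG2 against 34.2 FPKM in control HepG2, and 30.9 FPKM in treated PLC/PRF/5 against 43.9 FPKM in control PLC/PRF/5. Its ratios were 0.674 (0.620 to 0.732) in HepG2 and 0.705 (0.656 to 0.758) in PLC/PRF/5. Of its 2478 exon bases, 49 are shared with FADS2, a fatty acid desaturase gene on the same strand, and 166 with TMEM258, on the opposite strand. FADS2 had 1.32 FPKM in treated and 10.3 FPKM in control HepG2, and 0.463 FPKM in treated and 1.88 FPKM in control PLC/PRF/5. TMEM258 had 3.83 FPKM in treated and 4.44 FPKM in control HepG2, and 6.26 FPKM in treated and 9.59 FPKM in control PLC/PRF/5. The part of either gene in the FEN1 values was not tested. LIG1, the ligase that seals the fragments, had 0.711 (0.646 to 0.782) in HepG2 and 0.692 (0.636 to 0.754) in PLC/PRF/5. The subunits of the single-strand binding protein RPA had ratios of 0.789 (RPA1), 0.755 (RPA2) and 0.697 (RPA3) in HepG2, and 0.818, 0.717 and 0.682 in PLC/PRF/5. RPA2 differed most between the lines in this role, at 7.57 FPKM in treated HepG2 against 10.0 FPKM in control HepG2, and 12.1 FPKM in treated PLC/PRF/5 against 16.8 FPKM in control PLC/PRF/5.

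All 5 nucleotide synthesis genes were lower in treated cells of both lines, as most protein-coding genes were on the deposited scale. Their summed ratios were 0.714 (0.692 to 0.737) in HepG2 and 0.785 (0.761 to 0.810) in PLC/PRF/5. On nuclear fragments these were 0.822 (0.796 to 0.848) in HepG2 and 0.860 (0.833 to 0.888) in PLC/PRF/5. TK1 (chromosome 17, 78174075 to 78187233, minus strand), the thymidine kinase of the salvage pathway, had 14.9 FPKM in treated HepG2 against 26.0 FPKM in control HepG2, and 18.8 FPKM in treated PLC/PRF/5 against 25.4 FPKM in control PLC/PRF/5. Its ratio of 0.575 (0.516 to 0.642) in HepG2 was the lowest of the 42 genes that passed the filter there, against 0.738 (0.666 to 0.818) in PLC/PRF/5. The untreated lines had nearly equal TK1, and the treated HepG2 library was the lowest of the 4. DUT, which removes dUTP and so keeps uracil out of DNA, had 0.666 (0.597 to 0.743) in HepG2 and 0.770 (0.692 to 0.856) in PLC/PRF/5. TYMS, which makes dTMP from dUMP, had 0.726 (0.660 to 0.799) in HepG2 and 0.842 (0.764 to 0.928) in PLC/PRF/5. The ribonucleotide reductase subunits kept a ratio near 1 to each other: the level of RRM2 per RRM1 was 0.994 in treated and 1.06 in control HepG2, and 0.912 in treated and 0.879 in control PLC/PRF/5.

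UHRF1 (chromosome 19, 4903080 to 4962154, plus strand), which recognises hemimethylated DNA behind the fork and brings in the methyltransferase DNMT1, had the largest difference of the 43 genes. It had 35.6 FPKM in treated HepG2 against 48.8 FPKM in control HepG2, and 5.80 FPKM in treated PLC/PRF/5 against 18.7 FPKM in control PLC/PRF/5. The treated PLC/PRF/5 library stood far below the other 3, and the ratio there was 0.310 (0.280 to 0.341), against 0.730 (0.699 to 0.764) in HepG2. On nuclear fragments these were 0.339 (0.307 to 0.374) and 0.841 (0.805 to 0.879), and among the 43 genes its rank by level was 34 in treated and 16 in control PLC/PRF/5, and 4 in treated and 3 in control HepG2. DNMT1 itself had 15.8 FPKM in treated HepG2 against 18.3 FPKM in control HepG2, and 15.6 FPKM in treated PLC/PRF/5 against 17.7 FPKM in control PLC/PRF/5. In the same treated PLC/PRF/5 library, 10 genes of ribosomal RNA processing (RRP genes with EMG1 and FTSJ1, grouped after their values were seen) were also far below control, with ratios of 0.0719 to 0.273 and 1158 fragments in treated against 12006 in control PLC/PRF/5; in HepG2 their ratios were 0.705 to 1.05. Their part in the UHRF1 value was not tested.

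**Figure D3:**
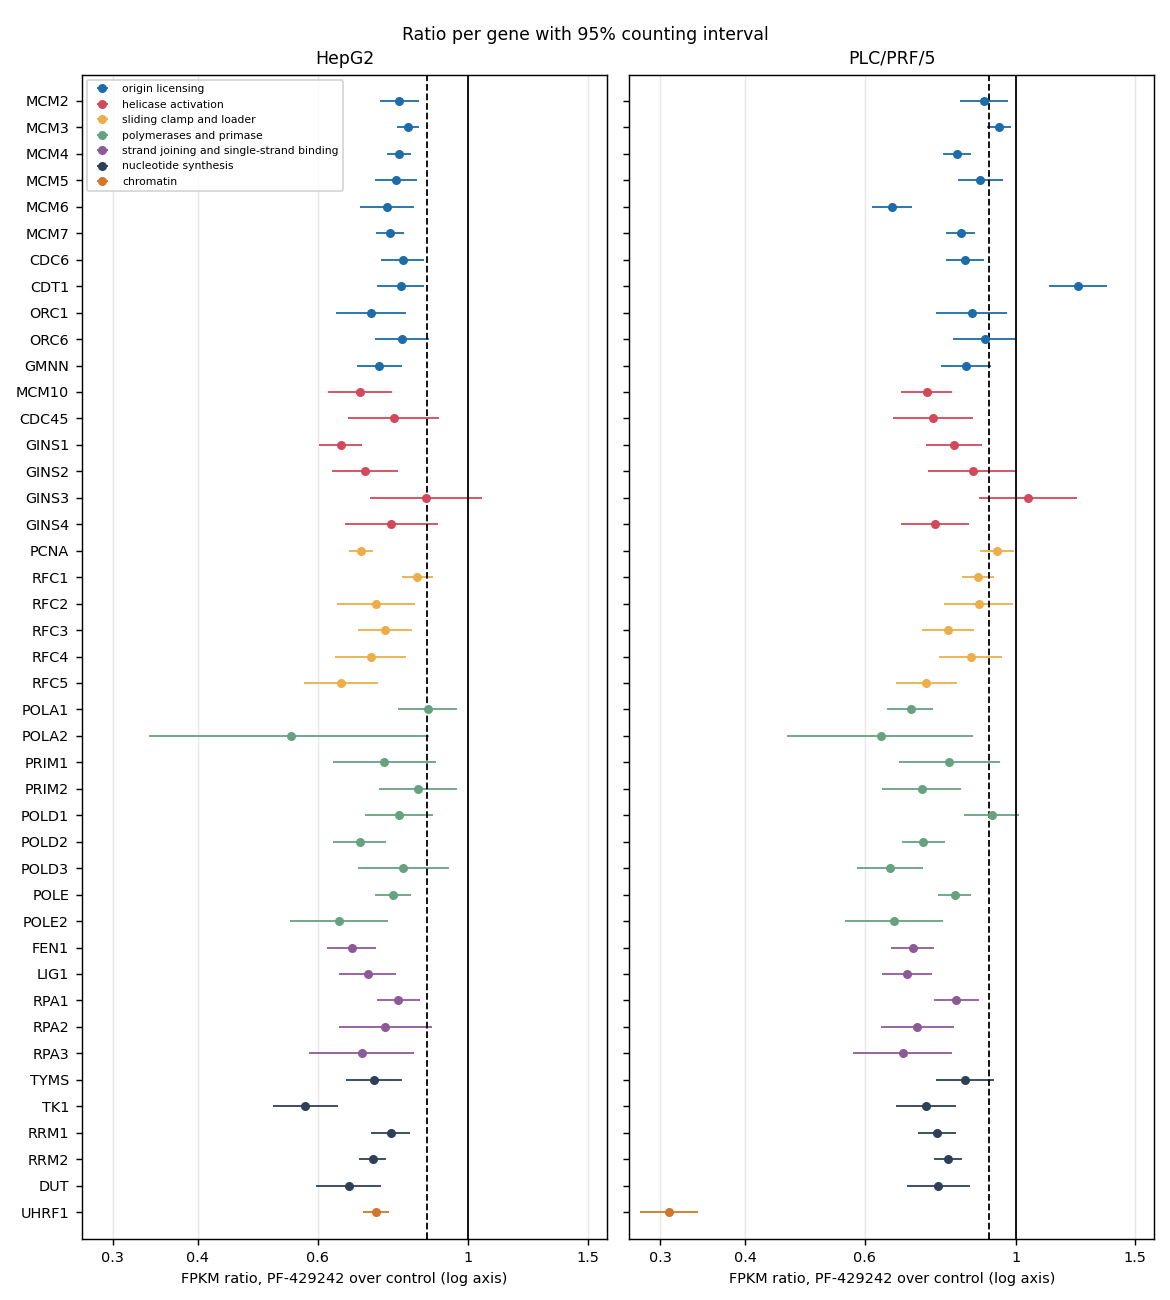
Ratio of FPKM, PF-429242 over control (log axis), for each of the 43 genes in HepG2 (left) and PLC/PRF/5 (right); bars are 95% counting intervals on total fragments, colours are roles, the solid line is a ratio of 1 and the dashed line the ratio of a nuclear gene with an equal nuclear share (0.868 and 0.913). Most intervals lie left of 1 in both panels, UHRF1 lies at 0.310 and CDT1 at 1.24 in PLC/PRF/5, and POLA2 has the widest bars.

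Lists of neighbouring cell cycle genes had medians below that of all genes, although for the G1/S list in PLC/PRF/5 the medians were equal after rounding. The list of E2F factors and G1/S regulators had 1 of 19 lower and 0 higher past 1.5-fold in HepG2. The gene called was CDKN1A, described below, and not an E2F factor. In PLC/PRF/5, 0 of 20 were lower and 0 higher. The median log2 ratios were -0.30 in HepG2 and -0.13 in PLC/PRF/5, against -0.17 and -0.13 over all genes. Past 1.5-fold, 5.54% of all genes were lower and 2.33% higher in HepG2, and 5.07% lower and 4.25% higher in PLC/PRF/5. The counts of this and the following lists are small and were not tested against these shares. E2F7, a repressor of the family, had 3.04 FPKM in treated HepG2 against 4.66 FPKM in control HepG2, and 2.71 FPKM in treated PLC/PRF/5 against 4.16 FPKM in control PLC/PRF/5. E2F2, an activator, had 1.84 FPKM in treated HepG2 against 3.21 FPKM in control HepG2, and 3.29 FPKM in treated PLC/PRF/5 against 4.55 FPKM in control PLC/PRF/5. E2F8, another repressor, had 3.16 FPKM in treated HepG2 against 4.24 FPKM in control HepG2, and 2.54 FPKM in treated PLC/PRF/5 against 4.23 FPKM in control PLC/PRF/5. All 3 were below their control in both lines. CDKN1A, the cyclin-dependent kinase inhibitor p21, was named after its values were seen and had 15.7 FPKM in treated HepG2 against 24.3 FPKM in control HepG2, and 8.92 FPKM in treated PLC/PRF/5 against 6.73 FPKM in control PLC/PRF/5. It was lower in treated HepG2 and higher in treated PLC/PRF/5, the same directions as CDT1; this difference between the lines was not tested.

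Further licensing and firing factors had 1 of 13 lower and 0 higher past 1.5-fold in HepG2 and 1 of 13 lower and 0 higher in PLC/PRF/5, with medians of -0.25 in HepG2 and -0.35 in PLC/PRF/5. For this list and the others in this paragraph, the shares of all genes past 1.5-fold were 5.54% lower and 2.33% higher in HepG2. In PLC/PRF/5 they were 5.07% lower and 4.25% higher. Among them TICRR (treslin), which helps load CDC45, had 3.57 FPKM in treated HepG2 against 6.34 FPKM in control HepG2, and 3.21 FPKM in treated PLC/PRF/5 against 5.11 FPKM in control PLC/PRF/5. CDC7, the kinase that fires origins, had 4.33 FPKM in treated HepG2 against 6.10 FPKM in control HepG2, and 11.1 FPKM in treated PLC/PRF/5 against 18.3 FPKM in control PLC/PRF/5. Both were below their controls in each line, TICRR past 1.5-fold in HepG2 and CDC7 past 1.5-fold in PLC/PRF/5. Fork protection and accessory genes had 0 of 13 lower and 0 higher past 1.5-fold in HepG2 and 0 of 14 lower and 0 higher in PLC/PRF/5, with medians of -0.28 in HepG2 and -0.31 in PLC/PRF/5. TOP2A, the topoisomerase that untangles copied DNA, had 78.8 FPKM in treated HepG2 against 116 FPKM in control HepG2, and 59.2 FPKM in treated PLC/PRF/5 against 77.5 FPKM in control PLC/PRF/5. Chromatin assembly genes had 0 of 9 lower and 0 higher past 1.5-fold in HepG2 and 0 of 9 lower and 0 higher in PLC/PRF/5, with medians of -0.26 in HepG2 and -0.15 in PLC/PRF/5. ASF1B, a histone chaperone, had 6.37 FPKM in treated HepG2 against 9.44 FPKM in control HepG2, and 7.97 FPKM in treated PLC/PRF/5 against 10.8 FPKM in control PLC/PRF/5. Replication stress genes had 0 of 7 lower and 0 higher past 1.5-fold in HepG2 and 0 of 7 lower and 0 higher in PLC/PRF/5, with medians of -0.37 in HepG2 and -0.29 in PLC/PRF/5. EXO1, an exonuclease of repair, had 4.80 FPKM in treated HepG2 against 6.65 FPKM in control HepG2, and 8.24 FPKM in treated PLC/PRF/5 against 11.2 FPKM in control PLC/PRF/5. TOP2A, ASF1B and EXO1 were each below control in both lines, by less than 1.5-fold on the scale of FPKM + 1.

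Metabolic lists lay nearer the median of all genes. For the counts in this paragraph too, the shares of all genes past 1.5-fold were 5.54% lower and 2.33% higher in HepG2. In PLC/PRF/5 they were 5.07% lower and 4.25% higher. Pyrimidine, folate and deoxynucleotide enzymes had 0 of 20 lower and 0 higher past 1.5-fold in HepG2 and 0 of 20 lower and 0 higher in PLC/PRF/5, with medians of -0.21 in HepG2 and -0.12 in PLC/PRF/5. Their largest mean difference was in the opposite direction: SHMT2, the mitochondrial serine hydroxymethyltransferase that feeds one-carbon units, had 45.0 FPKM in treated HepG2 against 31.6 FPKM in control HepG2, and 28.2 FPKM in treated PLC/PRF/5 against 20.5 FPKM in control PLC/PRF/5. CMPK1, a kinase of CMP and UMP, had 27.4 FPKM in treated HepG2 against 36.5 FPKM in control HepG2, and 37.7 FPKM in treated PLC/PRF/5 against 46.9 FPKM in control PLC/PRF/5. SHMT2 was thus above control in both lines, and CMPK1 below. Purine synthesis genes had 0 of 14 lower and 0 higher past 1.5-fold in HepG2 and 0 of 14 lower and 0 higher in PLC/PRF/5, with medians of -0.12 in HepG2 and -0.14 in PLC/PRF/5. Mitosis genes, which act after replication, had 1 of 20 lower and 0 higher past 1.5-fold in HepG2 and 2 of 20 lower and 0 higher in PLC/PRF/5. Unlike the metabolic lists they had low medians, -0.39 in HepG2 and -0.33 in PLC/PRF/5. The 43 replication genes had -0.37 in HepG2 and -0.28 in PLC/PRF/5, so the shift was not particular to them. KIF23, a motor protein of cell division, had 5.55 FPKM in treated HepG2 against 8.72 FPKM in control HepG2, and 12.3 FPKM in treated PLC/PRF/5 against 19.8 FPKM in control PLC/PRF/5.

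Without treatment, the lines differed gene by gene without a common direction. In the untreated libraries the median log2 ratio, HepG2 over PLC/PRF/5, was -0.04 for the 43 genes, against -0.06 for 13861 genes, and this comparison uses the same control libraries as those above. Past 1.5-fold, 6 of 43 were higher in HepG2 (CDT1, GINS1, GINS2, MCM2, PCNA and UHRF1), against 19.8% of all genes, and 5 were lower (GINS4, MCM6, POLA1, POLD3 and RPA2), against 23.7%. UHRF1 had the largest ratio, 2.60 (2.47 to 2.74), followed by PCNA at 2.26 (2.16 to 2.37), GINS2 at 2.00 (1.77 to 2.26), GINS1 at 1.95 (1.81 to 2.11) and CDT1 at 1.87 (1.71 to 2.04). The counting intervals of PCNA and GINS2 overlapped, as did those of GINS2, GINS1 and CDT1. POLD3 had the lowest ratio, 0.464 (0.408 to 0.526), with POLA2 at 0.491 (0.344 to 0.690), MCM6 at 0.494 (0.458 to 0.532) and GINS4 at 0.533 (0.468 to 0.606). These intervals also overlapped, so their order is not settled by counting.

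The roles differed in direction between the untreated lines. The polymerase and primase genes were lower in HepG2 for 9 of 9 members, with a summed ratio of 0.718 (0.695 to 0.741), while the median log2 ratio of all genes was -0.06. The counting intervals of PRIM1, POLE2 and PRIM2 spanned 1, with ratios of 0.989 (0.841 to 1.16), 0.983 (0.849 to 1.14) and 0.967 (0.854 to 1.09). On nuclear totals 9 of 9 were also lower, with median-of-ratios scaling 8, and on the TPM scale and after quantile normalization 6. Licensing genes were higher in HepG2 for 9 of 11, with a summed ratio of 1.18 (1.16 to 1.20), MCM6 and CDC6 being the exceptions. Nuclear totals left 8 of 11 higher, with a summed ratio of 1.12 (1.10 to 1.14) on nuclear fragments. Over the 43 genes, the interval on total fragments lay below 1 for 17, against 40.6% of all genes, and above 1 for 17, against 34.6%. The counts by role were not tested against these shares. The 4 GINS subunits divided, with GINS1 and GINS2 higher and GINS4 lower in HepG2. The span from the lowest to the highest GINS subunit was 9.43 in control HepG2 and 4.27 in control PLC/PRF/5. The nucleotide synthesis genes were the closest, with ratios from 0.948 (RRM1) to 1.14 (TYMS).

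**Figure D4:**
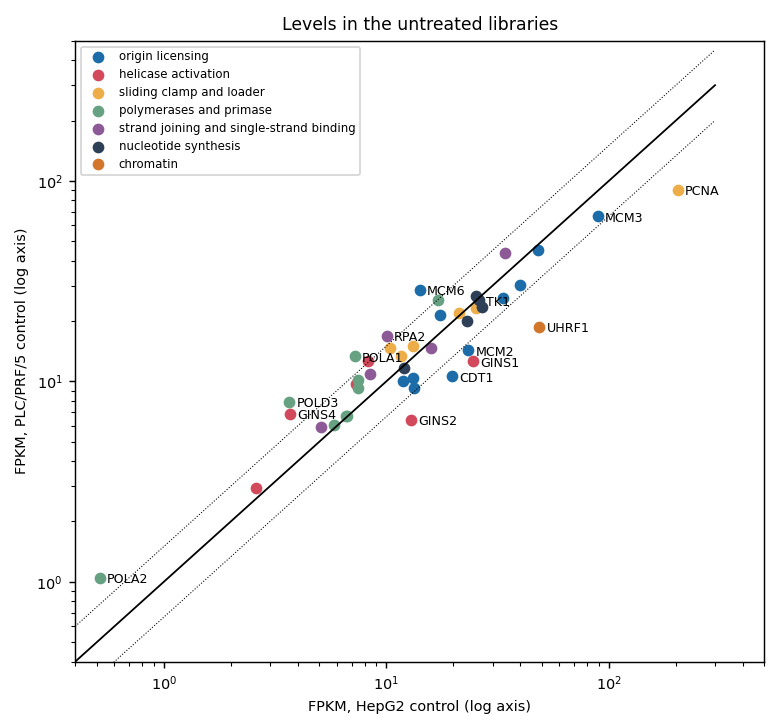
FPKM of each of the 43 genes in the HepG2 control (horizontal, log axis) and the PLC/PRF/5 control (vertical, log axis), coloured by role; the solid line marks equal levels and the dotted lines 1.5-fold. UHRF1, PCNA, GINS1, GINS2, CDT1 and MCM2 lie below the lower dotted line, and MCM6, POLA1, POLD3, GINS4 and RPA2 above the upper one, as do POLA2 and MCM10, which did not pass 1.5-fold once 1 FPKM was added.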

How the data were processed

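The deposited values were FPKM for 32479 Ensembl genes in 4 libraries, made by the authors. TopHat2 and the build GRCh38 are named in the submitters' processing notes. The sources used here do not give the counting program, annotation, strand or RNA selection. Groups came from the labels, 1 library each, and no library or column was left out.

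With exon-union lengths of GENCODE 29, the FPKM of 24452 genes (75.3%) came out as whole fragments (tolerance 0.001), and a length search solved the other 8027. Sums of the recovered fragments lay within 0.07% of the library totals used as depth; 3 fragments of a 1 kb gene correspond to 0.140 to 0.179 FPKM. Members were matched by GENCODE symbol.

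Log2 ratios of (FPKM + 1) were taken within each line and between the controls, and called at 1.5-fold where either library reached 1 FPKM. Ratios of fragments carry 95% exact conditional binomial (Clopper-Pearson) intervals (scipy 1.17.1) on total and on non-mitochondrial fragments; fragments without molecular identifiers are not independent molecules. The fit over both lines used limma 3.58.1 under R 4.3.3 (trend, cell line as block, Benjamini-Hochberg over genes that reached 1 FPKM in 2 or more libraries). It was also run on simulated data whose changes were larger than the shared change of any of these genes. That run therefore does not cover changes of their size.

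The genes and lists were chosen with earlier results of these data known. In each role all 4 values are given for genes with the largest mean log2 ratio and the largest gap between lines, from other lists up to 3 genes by mean, and exceptions are named as such; 1 gene that this rule names is not reported here. Alternatives were pseudocounts of 0.1 and 5, no filter or 5 FPKM, TPM scale, median-of-ratios, nuclear totals, quantile normalization, a stricter threshold of 2-fold and a looser one, limma without trend, robust or without block, an adjusted p of 0.1, and limma-voom. Results without UHRF1 were added after the data were seen.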

Additional observations from a re-analysis of the deposited data

Results flagged for a closer look

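CDT1, the loader of the MCM ring, stood out because its counting intervals lay on opposite sides of a ratio of 1 in the lines, 0.795 in HepG2 and 1.24 in PLC/PRF/5. Its log2 ratio of (FPKM + 1) in HepG2 minus that in PLC/PRF/5 was -0.59. In PLC/PRF/5 it was above control on the deposited scale, nuclear totals, median-of-ratios scaling and quantile normalization. On the TPM scale alone it was below, at a log2 ratio of -0.03, so its direction there depends on whether that scale is used. With 1 library per group this difference was not tested.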

How the results depend on the processing

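The median log2 ratio of the genes in HepG2 (-0.37) was -0.40 and -0.29 with pseudocounts of 0.1 and 5, -0.69 on the TPM scale, -0.17 with median-of-ratios scaling, -0.18 on nuclear totals and -0.17 after quantile normalization. In PLC/PRF/5 (-0.28) it was, in the same order, -0.32, -0.22, -0.59, -0.17, -0.16 and -0.14. In both lines it stayed below 0 under each of these, and below the median of all genes. The 2 genes lower past 1.5-fold in HepG2 became 4 and 1 with pseudocounts of 0.1 and 5 (9.92% and 1.04% of all genes), 36 on the TPM scale (24.3%), 0 with each of the other scalings (3.57% to 3.62%), 0 past 2-fold (2.14%) and 27 past the looser fold threshold (21.5%). The 1 gene in PLC/PRF/5 became 4 with a pseudocount of 0.1 (9.58% of all genes), 22 on the TPM scale (20.8%) and 18 past the looser threshold (19.7%); without UHRF1 it is 0 by construction, since that was the gene called. Between the controls, the median (-0.04) was -0.021 at 5 FPKM, 0.16 on the TPM scale, -0.0176 with median-of-ratios scaling, -0.11 on nuclear totals and 0.0145 after quantile normalization; the 5 lower genes became 2 with a pseudocount of 5 (10.2% of all genes), 0 past 2-fold (13.1%) and 13 past the looser threshold (35.8%), and the 6 higher genes 2 past 2-fold (10.0%) and 10 past the looser one (30.2%). The cause of these changes was not tested. In the shared fit, the TPM scale gave 40 lower genes, and every other setting tried, including limma-voom, gave 0 at the adjusted threshold. No paired analysis was possible within a line because the labels carry no replicate numbers and each group has 1 library, so no replicate could be left out either; the fit over both lines pairs the libraries by line. Fragments were fewest for POLA2 (32 in treated HepG2), followed by RPA3, GINS3, POLE2 and PRIM1 (221 to 224 in their lowest library), and the spread between cultures is unknown for all 43.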
